A study of Mus musculus with 8 samples.

Results

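The genes described here encode the enzymes of cholesterol synthesis, the enzymes that make, elongate and desaturate fatty acids, and the proteins that control the SREBP transcription factors. The 33 genes were taken as a fixed list of symbols, and 32 of them were found on the array, *Acat2* having no probe under that symbol, out of 26894 genes with a probe. Where a gene had several probes, the probe with the highest mean over the 8 deposited normalized columns was used, and the 32 probes chosen in this way were all well above background on 8 of 8 arrays and were all tested. Islets came from male βUCP2Tg mice, which carry full-length *Ucp2* under a rat insulin promoter and therefore overexpress it in β-cells, and from their male WT littermates, on a C57BL6/J background, at 8 to 12 weeks of age. Islets of both genotypes were kept for 8 h in RPMI 1640 with serum, 200 mg/dL glucose and 5% CO2 before RNA was extracted, and each of the 4 βUCP2Tg and 4 WT samples was hybridised to its own one-colour Agilent array. Whether a sample was 1 mouse or several pooled mice is not given in the sources used here, so the p-values measure the spread between these samples. RNA of whole islets was measured, and fewer cells of a type and less RNA per cell cannot be told apart.

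SREBP proteins are made as precursors in the membrane of the endoplasmic reticulum, where they are bound to SCAP, a sterol sensor. When sterols are scarce, SCAP carries the precursor to the Golgi, where proteases release the transcription factor. When sterols are plentiful, the INSIG proteins hold SCAP back. The product of *Srebf2* acts mainly on genes of the mevalonate and sterol pathway, and the products of *Srebf1* act more on fatty acid synthesis. Cholesterol is needed for the membrane of insulin granules, and both an excess and a lack of it are known to disturb insulin secretion.

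Promoters of sterol genes are known for sterol regulatory elements, which SREBP binds, and for CCAAT boxes, bound by the factor NF-Y, with which SREBP cooperates. The 250 bases before the start of the gene are printed for 4 enzymes of cholesterol synthesis whose WT and βUCP2Tg arrays did not overlap (described with the values of each gene) and which have 1 window each in the RefSeq promoter table (build GRCm38.p6). Capitals mark CCAAT on either strand (ATTGG on the other) and the sterol regulatory element searched for, TCACNCCAC, also on either strand. The matches did not overlap each other. Each sequence runs 5′ to 3′ on the strand of the gene and ends at the base before its start.
*Hmgcs1*, chr13:119690101-119690350, forward strand: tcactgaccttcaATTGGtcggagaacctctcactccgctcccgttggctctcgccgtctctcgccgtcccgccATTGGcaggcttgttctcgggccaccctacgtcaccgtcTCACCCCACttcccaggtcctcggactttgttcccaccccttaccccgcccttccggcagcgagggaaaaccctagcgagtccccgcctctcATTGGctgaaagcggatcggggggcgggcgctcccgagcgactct
*Msmo1*, chr8:64733579-64733828, reverse strand: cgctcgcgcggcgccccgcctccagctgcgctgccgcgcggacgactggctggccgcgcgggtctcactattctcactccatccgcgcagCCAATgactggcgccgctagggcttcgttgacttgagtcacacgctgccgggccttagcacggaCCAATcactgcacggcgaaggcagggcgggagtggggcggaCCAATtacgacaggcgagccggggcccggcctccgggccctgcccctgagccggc
*Hsd17b7*, chr1:169969206-169969455, reverse strand: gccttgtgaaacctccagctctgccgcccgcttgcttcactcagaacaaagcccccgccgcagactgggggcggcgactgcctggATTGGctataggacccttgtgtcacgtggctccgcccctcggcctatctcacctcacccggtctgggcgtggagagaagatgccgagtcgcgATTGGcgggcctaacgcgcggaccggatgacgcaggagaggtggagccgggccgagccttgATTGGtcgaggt
*Lss*, chr10:76531355-76531604, forward strand: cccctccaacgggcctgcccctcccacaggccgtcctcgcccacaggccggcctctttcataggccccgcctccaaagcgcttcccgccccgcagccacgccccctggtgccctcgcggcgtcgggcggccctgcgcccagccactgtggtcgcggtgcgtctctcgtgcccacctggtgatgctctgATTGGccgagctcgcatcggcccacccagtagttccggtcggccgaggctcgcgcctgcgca
TCACNCCAC was found in the window of *Hmgcs1*, 137 bases before the start, and in no other window of the members (1 of 33 windows, 3.03%, against 1.05% of 32851 windows of all genes). CCAAT was present 3 times in each of *Hmgcs1*, *Msmo1* and *Hsd17b7* and 1 time in *Lss*. Over all members it was found in 22 of 33 windows (66.7%), belonging to 21 of the 25 genes with a window, against 33.8% of the windows of all genes. Among these 21 genes were some whose level was higher in βUCP2Tg (*Mvk*, *Dhcr7*) as well as those printed, and a match describes the sequence, not a bound site. *Fdps*, *Fdft1*, *Sqle*, *Stard4*, *Scd1*, *Scd2* and *Fads1* had no window.

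Levels are given as log2 of the processed signal minus the 75th percentile of the same array, so that 0 is the 75th percentile, and the level of one probe is not set against that of another. A gene was called when limma gave a Benjamini-Hochberg adjusted p under 0.05 over 35363 probes together with a fold change over 1.5. *Ucp2* itself stood between 0.92 and 1.46 on the WT arrays and between 6.99 and 7.71 on the βUCP2Tg arrays (log2 fold change 6.24, SE 0.18, limma adjusted p = 9.32e-06). The 8 β-cell markers were well above background on 8 of 8 arrays. The WT arrays lay in one row of the slide and those of βUCP2Tg in the second row, and position and genotype cannot be told apart. Some arrays stood apart from the rest of their genotype in gene groups other than the members. The mean level of 14 hypoxia response genes was 2.15 on WT 1 against 3.01 to 3.097 on WT 2 to 4, and 2.65 on βUCP2Tg 4 against 1.21 to 1.26 on βUCP2Tg 1 to 3. On βUCP2Tg 3, transcripts of hepatocytes were present: *Alb* (albumin) stood at 4.67 against -4.68 to -3.65 on the other 7 arrays, and 16 of 16 hepatocyte genes were well above background there against 7 or 8 on each other array. Of these 16 genes, 12 had their highest level on βUCP2Tg 3, while *Apoc3*, *Bhmt*, *Fgb* and *Tat* were highest on a WT array and *Apoc3* was lowest on βUCP2Tg 3. That list was drawn up after the values were seen. The mean level of 11 genes of acinar cells was -0.92 on WT 4 against 1.80 to 3.27 on WT 1 to 3, and 2.63 on βUCP2Tg 4 against -1.33 to 0.12 on βUCP2Tg 1 to 3, with 11 of 11 lower in βUCP2Tg and 0 called.

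None of the 32 members was called: 0 were higher, where 0.274% of 17857 genes were called, and 0 were lower, where 0.207% were called. The lowest adjusted p among them was 0.0659 (limma), for *Stard4*. At an unadjusted p under 0.05, 2 members were higher (*Mvk* and *Dhcr7*) and 9 were lower (*Hmgcs1*, *Pmvk*, *Idi1*, *Sqle*, *Lss*, *Msmo1*, *Hsd17b7*, *Insig2* and *Stard4*). That is 28.1% of the members on the lower side, where 11.6% of all genes tested lay, and 6.25% on the higher side, where 12.9% lay. The 4 values of βUCP2Tg were all below the 4 WT values for 7 members (21.9%, against 6.74% of all genes tested) and all above them for 1 member, *Dhcr7* (3.12%, against 6.36%). The members were chosen with earlier results of these data known, and these shares describe the list without testing it. The methods' t-test with Benjamini-Hochberg adjustment called 0 members, and limma with an intensity trend called 1, *Hsd17b7* (adjusted p = 0.0419), where it called 0.648% of all probes as lower. Under normexp background correction 0 members were called, but 7 had an adjusted p under 0.05 with fold changes below 1.5, *Dhcr7* as higher and *Stard4* (limma adjusted p = 0.0247), *Hsd17b7*, *Sqle*, *Insig2*, *Lss* and *Msmo1* as lower. That correction gave an adjusted p under 0.05 to 2.19% of all probes as higher and 8.91% as lower, with no limit on the fold change.

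Among the members, the lower values without overlap lay among the sterol genes, *Insig2* and *Stard4*. Of the 17 genes of cholesterol synthesis, 13 had a log2 fold change below 0 (76.5%, against 46% of all genes tested), and their median was -0.23, against 0.03 over all genes tested. Of the 9 fatty acid genes, 2 were below 0 and the median was 0.09. As one level per array, the mean over the 17 sterol genes was 2.34, 2.63, 2.33 and 2.48 on WT 1 to 4 and 2.23, 2.32, 2.28 and 2.22 on βUCP2Tg 1 to 4. On this scaling the groups did not overlap, but only just, with WT 3 at 2.327 and βUCP2Tg 2 at 2.316. A small shift between arrays would close that gap, and the mean was not read under other scalings. The median over the same 17 genes showed no such separation (1.98 to 2.30 in WT, 2.03 to 2.25 in βUCP2Tg). The fatty acid genes as a mean ran from 0.94 to 1.12 in WT and from 0.82 to 1.60 in βUCP2Tg, with βUCP2Tg 3 at the top.

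**Figure D1:**
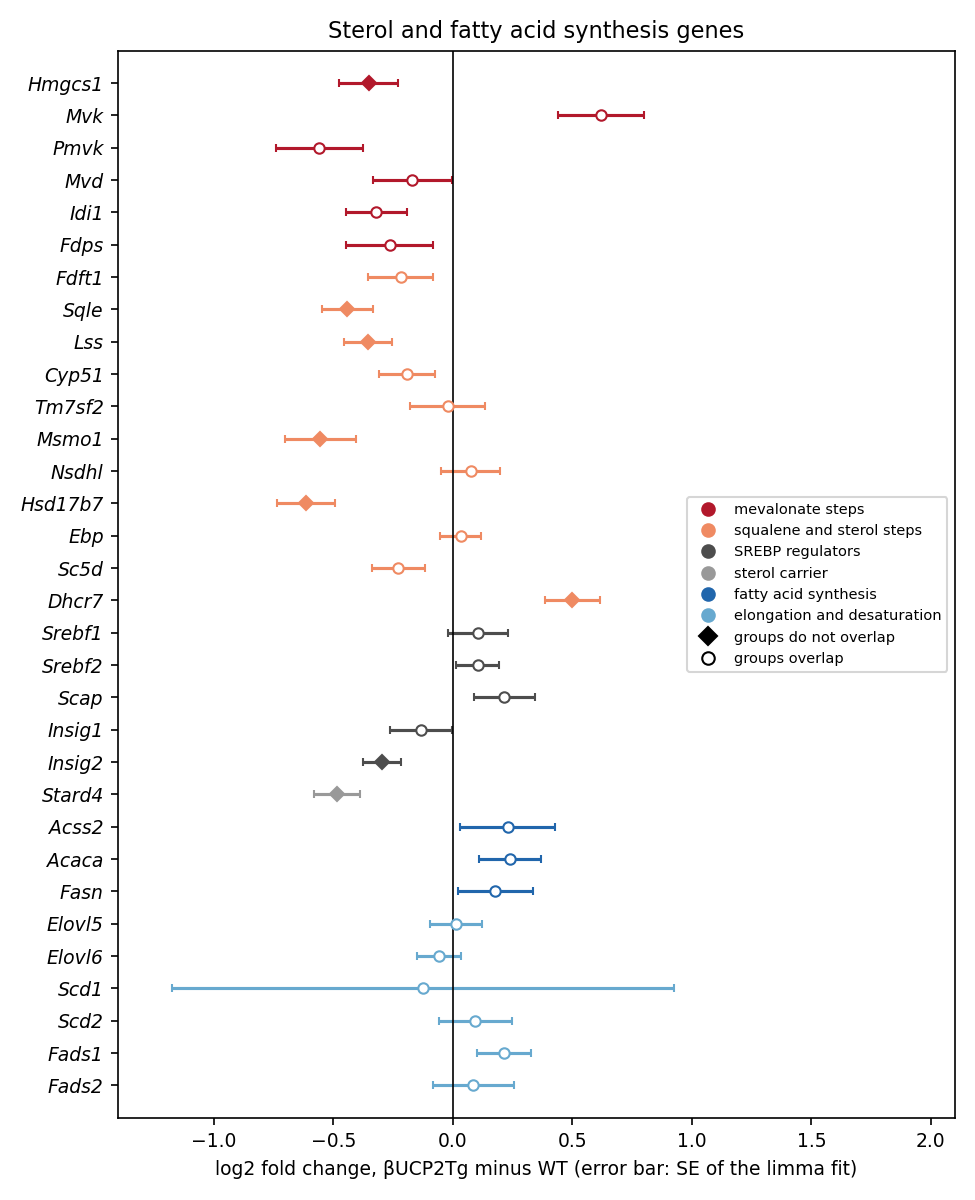
Log2 fold change of the 32 member genes, βUCP2Tg minus WT, with the SE of the limma fit (n = 4 arrays per group), ordered and coloured by role; filled diamonds mark genes whose groups did not overlap. Of the 17 genes of cholesterol synthesis at the top, 13 lie left of 0, *Mvk* and *Dhcr7* lie at 0.62 and 0.50, and the long bar belongs to *Scd1*, whose SE was 1.05.

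The early steps join acetyl units into mevalonate and turn mevalonate into farnesyl diphosphate, the last precursor that sterols share with ubiquinone, dolichol and protein prenylation. Of the 6 genes measured, 5 had a log2 fold change below 0. *Hmgcs1*, the synthase that makes HMG-CoA, stood at 3.94, 4.42, 3.97 and 4.18 on WT 1 to 4 and at 3.67, 3.81, 3.83 and 3.79 on βUCP2Tg 1 to 4. The groups did not overlap, though by a gap of 0.10 (log2 fold change -0.35, SE 0.12, limma adjusted p = 0.137). *Pmvk*, the kinase that phosphorylates mevalonate phosphate, stood at 4.74, 5.06, 5.06 and 5.32 in WT and at 4.37, 4.37, 4.26 and 4.95 in βUCP2Tg. βUCP2Tg 4 lay within the WT range and the other 3 lay below it (log2 fold change -0.56, SE 0.18, limma adjusted p = 0.122). *Idi1*, which isomerises isopentenyl diphosphate, was at -0.32 (SE 0.13), *Fdps*, the farnesyl diphosphate synthase, at -0.26 (SE 0.18) and *Mvd*, the mevalonate diphosphate decarboxylase, at -0.17 (SE 0.17), all as log2 fold changes. In *Idi1*, *Fdps* and *Mvd* the highest array was WT 2.

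*Mvk*, which encodes mevalonate kinase and so the step between those of *Hmgcs1* and *Pmvk*, lay the other way. Its levels were 2.09, 1.53, 1.39 and 1.89 on WT 1 to 4 and 2.39, 2.53, 2.43 and 2.03 on βUCP2Tg 1 to 4. WT 1 lay above βUCP2Tg 4, and the other arrays were separated by genotype (log2 fold change 0.62, SE 0.18, limma adjusted p = 0.106). Without WT 1, *Mvk* was called as higher (0.74, limma adjusted p = 0.0302) and *Pmvk* as lower (-0.66, adjusted p = 0.0465), and without βUCP2Tg 4 *Pmvk* was called as lower (-0.71, adjusted p = 0.0418). Without WT 1, however, 5.14% of all probes were called as higher and 5.67% as lower, and over the 8 fits that each left out 1 array the adjusted p ran from 0.0302 to 0.276 for *Mvk* and from 0.0418 to 0.292 for *Pmvk*. WT 1 and βUCP2Tg 4 are the arrays that stood apart in the hypoxia genes, and the part of that in *Mvk* and *Pmvk* was not tested.

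From farnesyl diphosphate, squalene is made, oxidised and closed into lanosterol, which is then demethylated and rearranged to cholesterol. Squalene epoxidase, encoded by *Sqle*, is one of the slow steps of the pathway. *Sqle* stood at 5.32, 5.58, 5.34 and 5.67 on WT 1 to 4 and at 5.04, 5.10, 4.95 and 5.06 on βUCP2Tg 1 to 4. The lowest WT array was 0.22 above the highest βUCP2Tg array (1.36-fold lower in βUCP2Tg, log2 fold change -0.44, SE 0.11, limma adjusted p = 0.0870). *Lss*, the cyclase that forms lanosterol, was at 2.02, 2.30, 1.98 and 2.09 in WT and at 1.68, 1.79, 1.68 and 1.82 in βUCP2Tg. Here too every WT array was above every βUCP2Tg array (log2 fold change -0.35, SE 0.10, limma adjusted p = 0.102).

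*Msmo1* and *Hsd17b7* take part in removing the methyl groups at the fourth carbon of the sterol ring, *Msmo1* as the oxidase and *Hsd17b7* as the ketoreductase that ends each round. *Msmo1* read 4.85, 5.58, 5.24 and 5.27 on WT 1 to 4 and 4.59, 4.72, 4.70 and 4.71 on βUCP2Tg 1 to 4. The 4 βUCP2Tg arrays lay close together (SD 0.06, n = 4) and the WT arrays were spread (SD 0.30, n = 4), with WT 2 at the top (log2 fold change -0.56, SE 0.15, limma adjusted p = 0.0961). *Hsd17b7* read 1.52, 1.998, 1.70 and 1.85 in WT and 1.00, 1.21, 1.18 and 1.22 in βUCP2Tg. It had the largest decrease among the members on these probes, with 0.30 between the nearest arrays of the groups (1.53-fold lower, log2 fold change -0.61, 95% interval -0.89 to -0.33, SE 0.12, limma adjusted p = 0.0663). Without WT 1, *Hsd17b7* (-0.70, limma adjusted p = 0.0156) and *Msmo1* (-0.69, adjusted p = 0.0160) were called as lower, in a fit that called 5.67% of all probes as lower. Without βUCP2Tg 4, *Hsd17b7* was called too (-0.63, adjusted p = 0.0477), where 0.994% of all probes were called as higher and 3.19% as lower. Over the 8 fits without 1 array the adjusted p ran from 0.0156 to 0.211 for *Hsd17b7* and from 0.0160 to 0.252 for *Msmo1*. On these probes, unlike *Pmvk*, βUCP2Tg 4 was not set off from the other βUCP2Tg arrays in either gene.

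*Dhcr7*, whose product makes cholesterol from the precursor that skin also turns into vitamin D, was the member with every βUCP2Tg array above every WT array. It read -1.18, -1.19, -1.48 and -1.29 on WT 1 to 4 and -0.77, -0.77, -0.60 and -0.99 on βUCP2Tg 1 to 4. βUCP2Tg 3, the array with hepatocyte transcripts, was the highest and βUCP2Tg 4 the lowest of its group (1.41-fold higher, log2 fold change 0.50, SE 0.11, limma adjusted p = 0.0823). Leaving out 1 array at a time gave log2 fold changes of 0.44 to 0.57, but with the 2 probes of *Dhcr7* averaged it was 0.12 (SE 0.12, limma adjusted p = 0.555) and the groups overlapped.

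The remaining genes of this stretch overlapped between the groups. *Fdft1*, which makes squalene, had a log2 fold change of -0.22 (SE 0.14), *Sc5d*, a desaturase of the sterol ring, of -0.23 (SE 0.11) and *Cyp51*, the lanosterol demethylase, of -0.19 (SE 0.12). *Tm7sf2*, a sterol reductase, was at -0.02 (SE 0.16), *Nsdhl*, a sterol dehydrogenase, at 0.07 (SE 0.12) and *Ebp*, a sterol isomerase, at 0.03 (SE 0.08). For *Ebp* the 95% interval ran from -0.16 to 0.23, so that changes beyond about that size were outside it, while for *Tm7sf2* it ran from -0.38 to 0.34. Genes near 0 thus lay between genes without overlap within the same series of reactions.

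**Figure D2:**
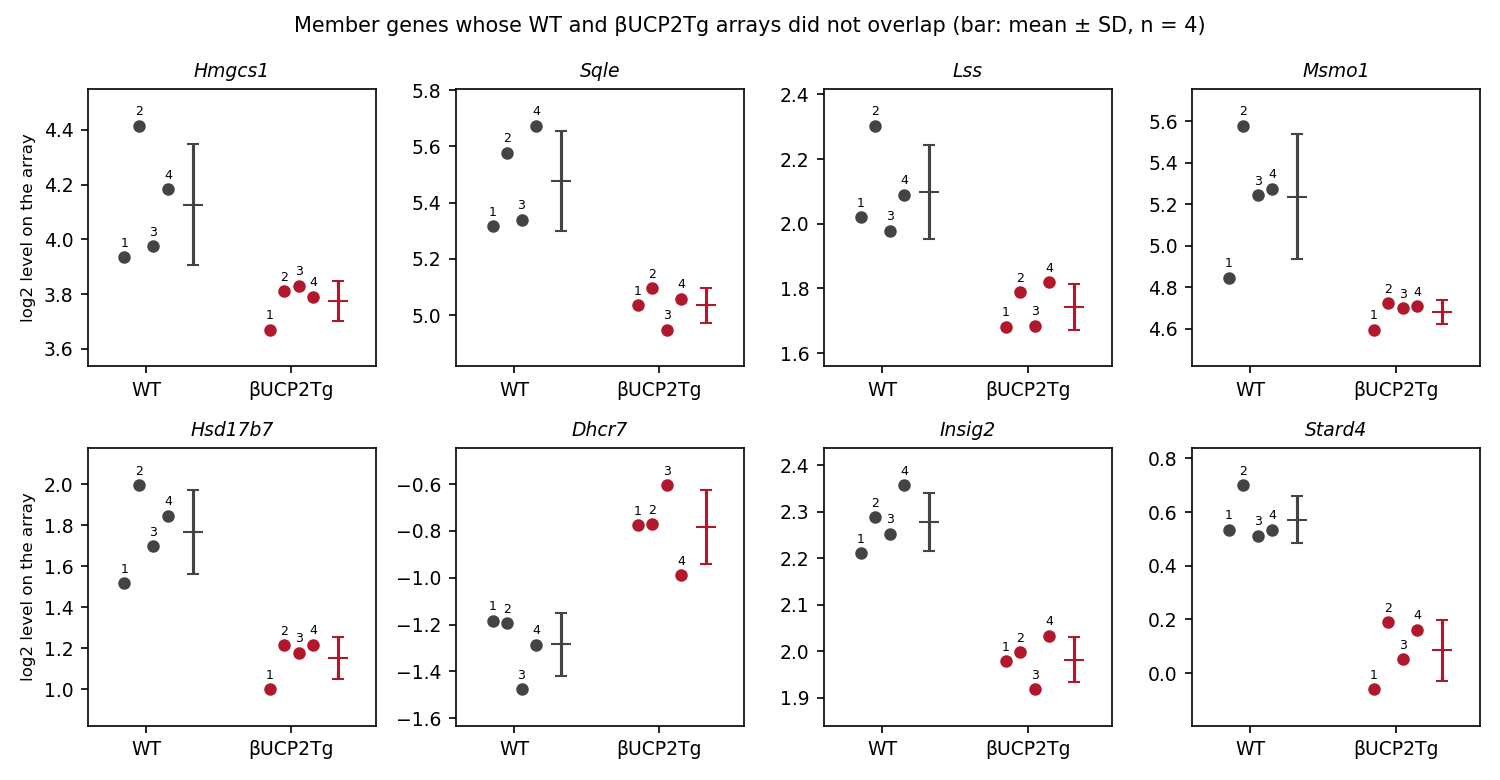
Log2 level of the 8 member genes whose WT and βUCP2Tg arrays did not overlap, 1 point per array with its replicate number, and mean ± SD (n = 4) beside the points; each panel has its own scale. *Dhcr7* is higher in βUCP2Tg, the other 7 are lower, and the gap between the groups runs from 0.10 in *Hmgcs1* to 0.32 in *Stard4*.

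For a gene whose groups of 4 do not overlap, the two-sided exact permutation test gives p = 0.0286, the smallest value that this design allows, and it therefore does not order the 8 genes. Without βUCP2Tg 3 these 8 genes still did not overlap and *Scd1* joined them, while 0 members were called. In that fit 0.0229% of all probes were called as higher and 0% as lower, and 6.1% and 7.88% lay without overlap. Scaling on the median of each array in place of the 75th percentile left 5 lower genes without overlap, *Hsd17b7*, *Insig2*, *Msmo1*, *Sqle* and *Stard4*, where 5.53% of all probes lay.

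Of the 5 regulators, 4 overlapped between the groups. *Srebf1* stood at 4.09, 3.75, 3.64 and 3.90 on WT 1 to 4 and at 4.08, 4.01, 3.96 and 3.75 on βUCP2Tg 1 to 4 (log2 fold change 0.11, SE 0.13, limma adjusted p = 0.630). *Srebf2* stood at 1.499, 1.45, 1.41 and 1.40 in WT and at 1.61, 1.62, 1.57 and 1.37 in βUCP2Tg (log2 fold change 0.10, SE 0.09, limma adjusted p = 0.502). The 95% intervals, -0.18 to 0.39 for *Srebf1* and -0.10 to 0.31 for *Srebf2*, held 0 in both, and βUCP2Tg 4 was the lowest βUCP2Tg array for both. *Scap* stood at 3.27, 2.87, 2.80 and 3.16 in WT and at 3.33, 3.26, 3.26 and 3.11 in βUCP2Tg (log2 fold change 0.22, SE 0.13, limma adjusted p = 0.319), so that WT 1 lay among the βUCP2Tg arrays. *Insig1*, itself a classical SREBP target, read -0.19, 0.38, 0.17 and 0.22 in WT and -0.04, 0.13, -0.06 and 0.00 in βUCP2Tg (log2 fold change -0.13, SE 0.13, limma adjusted p = 0.548). WT 1 was the lowest of the 8 arrays and the other WT arrays were above the βUCP2Tg arrays.

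*Insig2* was the regulator with separate groups. It read 2.21, 2.29, 2.25 and 2.36 on WT 1 to 4 and 1.98, 1.998, 1.92 and 2.03 on βUCP2Tg 1 to 4, a narrow spread within each genotype (SD 0.06 in WT and 0.05 in βUCP2Tg, n = 4). The difference was small in size, 1.23-fold lower in βUCP2Tg (log2 fold change -0.30, SE 0.08, limma adjusted p = 0.0969). *Stard4*, a carrier that moves cholesterol between membranes and is an SREBP target, read 0.53, 0.70, 0.51 and 0.53 in WT and -0.06, 0.19, 0.05 and 0.16 in βUCP2Tg. It had the widest gap between the groups, 0.32, and the lowest adjusted p of the members (1.40-fold lower, log2 fold change -0.48, 95% interval -0.70 to -0.27, SE 0.09, limma adjusted p = 0.0659). When the 2 probes of *Stard4* were averaged it was called (-0.80, limma adjusted p = 0.0483), where 0.476% of all genes were called as lower. The second of these probes was at a low level, from -5.37 to -3.39 over the 8 arrays.

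The fatty acid genes showed no such separation. The enzymes that make palmitate all had log2 fold changes above 0. *Acss2*, which makes acetyl-CoA from acetate, was at 0.23 (SE 0.20), *Acaca*, the carboxylase that makes malonyl-CoA, at 0.24 (SE 0.13) and *Fasn*, the fatty acid synthase, at 0.18 (SE 0.16). Their 95% intervals, with the widest from -0.23 to 0.68 for *Acss2*, held 0, and the limma adjusted p was 0.278 or more. *Fasn* stood at 4.80, 4.19, 4.28 and 4.60 on WT 1 to 4 and at 4.74, 4.65, 4.78 and 4.42 on βUCP2Tg 1 to 4. WT 1 was the highest of the 8 arrays and βUCP2Tg 4 the lowest βUCP2Tg array, and the same held for *Acss2* and *Acaca*. Among the genes of elongation and desaturation, *Elovl5* was at 0.01 (SE 0.11), *Elovl6*, which elongates palmitate, at -0.06 (SE 0.09), *Scd2*, a stearoyl-CoA desaturase, at 0.09 (SE 0.15), and the desaturases of polyunsaturated fatty acids *Fads1* and *Fads2* at 0.21 (SE 0.11) and 0.09 (SE 0.17). *Fads2* was nearly the same on the 4 WT arrays, from -1.21 to -1.17, and ran from -1.61 on βUCP2Tg 4 to -0.80 on βUCP2Tg 3.

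*Scd1*, the stearoyl-CoA desaturase of liver and fat, had the largest spread of the members. It read -3.85, -2.65, -2.70 and -3.28 on WT 1 to 4 and -4.10, -4.91, 0.33 and -4.29 on βUCP2Tg 1 to 4. βUCP2Tg 3 was above every WT array and the other 3 βUCP2Tg arrays were below every WT array, so that the fold change over all 8 arrays, -0.12 on the log2 scale (SE 1.05, limma adjusted p = 0.955), describes neither. Without βUCP2Tg 3 it was -1.31 (SE 0.33, limma adjusted p = 0.224). The same array held the hepatocyte transcripts, with *Ahsg* (fetuin-A) at 2.38 against -8.07 to -6.15 and *Fabp1* (liver fatty acid binding protein) at 2.07 against -8.18 to -6.67 on the other 7. Of the 6 adipocyte markers, *Plin1* and *Cfd* were well above background on 0 of 8 arrays and *Adipoq* on 1. On βUCP2Tg 3, *Fabp4* was at 0.29 in a βUCP2Tg range of 0.03 to 0.65. *Cidea* was at -0.94 there (range -0.94 to -0.68) and *Lep* at -1.66 (range -1.68 to -1.42). The part of hepatocyte or adipocyte RNA in the level of *Scd1* was not tested. Without βUCP2Tg 3 the median log2 fold change of the fatty acid genes was 0.04.

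**Figure D3:**
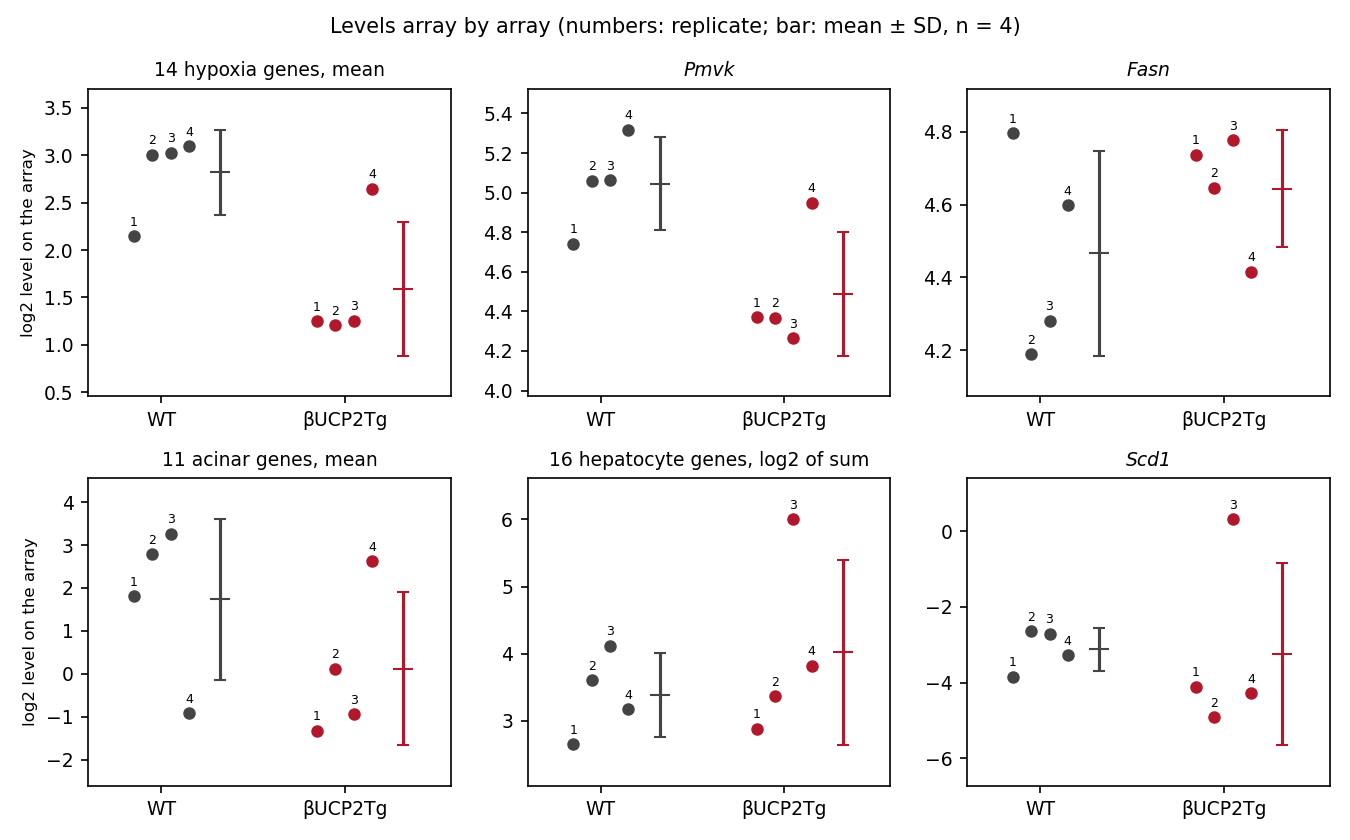
Log2 level on each array of the mean of 14 hypoxia genes, *Pmvk*, *Fasn*, the mean of 11 acinar genes, the log2 of the summed level of 16 hepatocyte genes, and *Scd1*, with replicate numbers beside the points and mean ± SD (n = 4). WT 1 and βUCP2Tg 4 lie between the other arrays of the groups in the hypoxia genes, βUCP2Tg 4 is set off from its group in *Pmvk*, WT 1 is the highest array in *Fasn*, and βUCP2Tg 3 is the highest array for the hepatocyte genes and *Scd1*.

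The members thus followed different arrays. WT 1 lay nearer to the mean of βUCP2Tg 1 to 3 than to that of WT 2 to 4 for 21 of 32 members (65.6%), much as for all genes tested (62.2%), and βUCP2Tg 4 lay nearer to the mean of WT 2 to 4 for 12 of 32 (37.5%, against 47.6%). Among the 17 sterol genes the counts were 10 for WT 1 and 4 for βUCP2Tg 4, and among the 9 fatty acid genes they were 8 and 6. For *Acss2*, *Fasn*, *Elovl5*, *Elovl6*, *Scd2*, *Srebf1*, *Ebp* and *Sc5d* both arrays lay nearer to the other genotype. These are 8 of 32 members (25%), no more than the 29.1% of all genes tested. Leaving out WT 1 and βUCP2Tg 4 together, an alternative chosen after the data had been seen, left 13 members lower and 11 higher without overlap, with *Fasn*, *Acaca*, *Acss2*, *Scd2*, *Srebf1*, *Srebf2* and *Scap* among the higher, where 23.6% and 21.5% of all probes lay. In that fit 3 members were called as lower (*Hsd17b7*, *Msmo1* and *Pmvk*) and 2 as higher (*Mvk* and *Dhcr7*), where 9.25% and 6.73% of all probes were called.

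**Figure D4:**
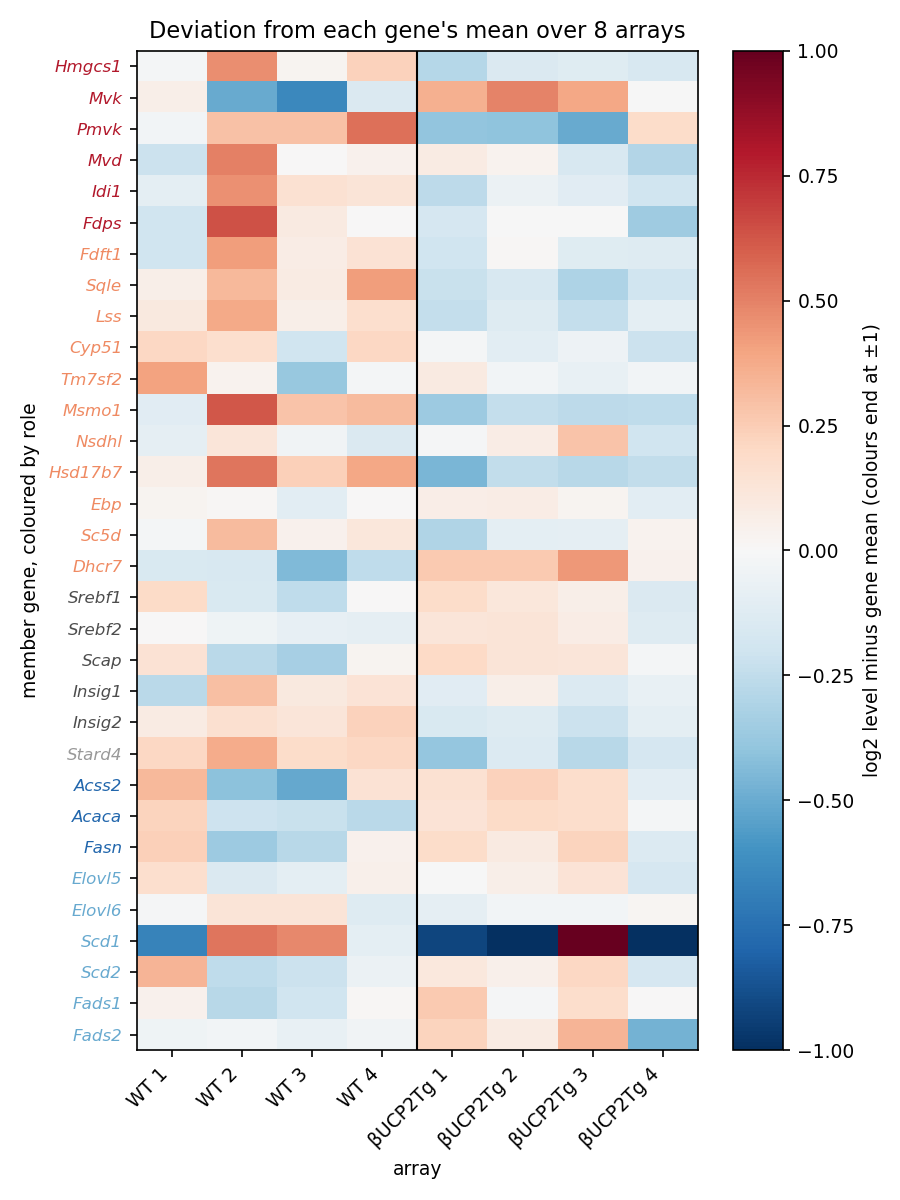
Deviation of each member gene from its own mean over the 8 arrays (log2, red above and blue below, colours end at ±1), with genes as lines in order of role and arrays as columns, WT left of the black line. The 7 lower genes without overlap are red on WT 2 and blue on the βUCP2Tg arrays, the fatty acid genes *Acss2*, *Acaca* and *Fasn* are red on WT 1 and on βUCP2Tg 1 to 3, and *Scd1* on βUCP2Tg 3 is the strongest red.

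Other probes of the same genes were read as a second view of the same RNA. Of 35 further tested probes, in 21 of the genes, 25 had the sign of the probe used. Of the 8 genes without overlap, 7 had further tested probes, 11 in all. Of these probes 10 had the same sign and 5 were likewise lower without overlap, where 7.17% of all probes tested lay. *Sqle* had no further tested probe, its second being well above background on 3 of 8 arrays, and rests on 1 probe. *Hsd17b7* was lower on its other probes by log2 fold changes of -0.49 and -0.99, *Insig2* by -0.35 and -0.45 and *Stard4* by -1.11. The -0.99 of *Hsd17b7* came from a probe well above background on 5 of 8 arrays, on which the groups overlapped. *Msmo1* gave -0.55 and -1.76 and *Hmgcs1* -1.64 on further probes, the last value of *Msmo1* and that of *Hmgcs1* being larger in size than on the probes used. The second probes of *Stard4* (-5.37 to -3.39 over the 8 arrays) and *Hmgcs1* (-4.55 to -1.59) were at low levels. Both enter the averages of all probes of a gene. On both further probes of *Msmo1* βUCP2Tg 4 was the highest βUCP2Tg array, at 2.445 against 2.416 on WT 1 on the one and at -1.49 against -1.43 on WT 1 on the other. The second probe of *Mvk* was higher with no overlap (0.45), and that of *Pmvk* was lower with βUCP2Tg 4 again above WT 1 (-0.61). Probes disagreed for *Dhcr7*, whose second probe gave -0.26 (SE 0.19), for *Sc5d* (0.27 without overlap, against -0.23) and for *Srebf2* (-0.29 against 0.10), and for *Lss* the further probes gave -0.05 and -0.21. With all probes of a gene averaged, *Lss* overlapped between the groups (-0.21), *Hmgcs1* was at -0.99 and *Msmo1* at -0.95 without overlap, and *Mvk* took the place of *Dhcr7* as the gene higher without overlap (0.54).

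**Figure D5:**
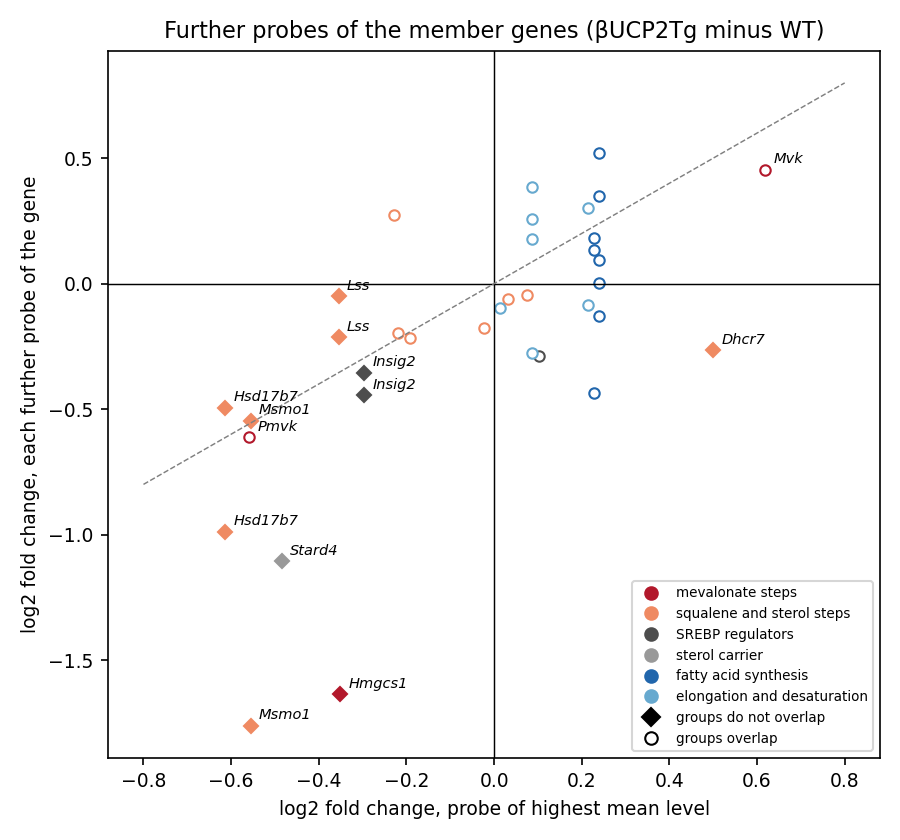
Log2 fold change (βUCP2Tg minus WT) of each of 35 further tested probes against that of the probe used for the same gene, coloured by role; diamonds are genes whose probe used had no overlap, and the dashed line marks equal values. Points of *Hsd17b7*, *Insig2*, *Msmo1*, *Stard4* and *Hmgcs1* lie below 0 on both axes, and *Dhcr7* lies right of 0 and below it.

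Neighbouring parts of sterol and lipid metabolism were read from 4 further lists, whose counts stand against 12.9% of all genes tested that were higher and 11.6% that were lower at an unadjusted p under 0.05. The 8 genes that cleave or turn over SREBP, SCAP and INSIG proteins all had log2 fold changes above 0, from 0.01 to 0.35. Over all genes tested 46% lay below 0. Of the 8 genes 0 were called, and 1 was higher (12.5%) and 0 lower at an unadjusted p under 0.05. *Mbtps1*, the protease that makes the first cut of the SREBP precursor in the Golgi, was at 0.35 (SE 0.14, limma adjusted p = 0.169), and *Rnf139*, a ubiquitin ligase of the endoplasmic reticulum, at 0.18. Of 13 genes of sterol efflux, storage and trafficking, 0 were called, 2 were higher (15.4%) and 0 lower at an unadjusted p under 0.05, and the median was 0.16. *Soat2*, which esterifies cholesterol, read -3.10, -2.12, -3.28 and -3.76 on WT 1 to 4 and -1.82, -1.66, -1.82 and -1.97 on βUCP2Tg 1 to 4. Its groups did not overlap (log2 fold change 1.25, SE 0.31, limma adjusted p = 0.0873). *Nr1h3*, the oxysterol receptor LXRα, was at 1.06 (SE 0.38, limma adjusted p = 0.142), with WT 1 within the βUCP2Tg range.

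Of 9 genes of the isoprenoid branch 0 were called, and 2 were lower (22.2%) and 0 higher at an unadjusted p under 0.05. The branch as a list was not lower: 5 of the 9 were above 0 and the median log2 fold change was 0.04. *Pdss1*, which makes the side chain of ubiquinone, was lower without overlap (-0.49, SE 0.14, limma adjusted p = 0.101), and *Nus1*, a subunit of the dolichol-making prenyltransferase, was at -0.40 (SE 0.14, limma adjusted p = 0.133). Of 19 other genes of fatty acid and lipid synthesis 0 were called, 3 were higher (15.8%) and 5 lower (26.3%) at an unadjusted p under 0.05. *Acacb*, the mitochondrial acetyl-CoA carboxylase, read -0.54, 0.73, 0.27 and 0.59 in WT and -0.89, -1.33, -1.18 and -0.39 in βUCP2Tg, with βUCP2Tg 4 above WT 1 (log2 fold change -1.21, SE 0.31, limma adjusted p = 0.0895). *Oxsm*, the synthase of mitochondrial fatty acids, was at -0.62 (SE 0.27, limma adjusted p = 0.193). The groups of *Acacb* and *Oxsm* overlapped. In 2 genes of this list (10.5%), chosen for mention after their values were seen, every βUCP2Tg array lay below every WT array: *Acsl4*, an acyl-CoA synthetase for polyunsaturated fatty acids, at -0.40 (SE 0.11, limma adjusted p = 0.0953), and *Elovl7*, an elongase, at -0.41 (SE 0.11, limma adjusted p = 0.102). Over all genes tested 6.74% lay lower without overlap. The median log2 fold change of the list was 0.02, with 10 of 19 above 0, among them *Mcat*, likewise chosen after its value was seen, the malonyl transferase of mitochondrial fatty acid synthesis, at 0.56 (SE 0.20, limma adjusted p = 0.143).

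Of the hypoxia genes, 12 of 14 were below 0, with a median log2 fold change of -1.23, 11 lower at an unadjusted p under 0.05 and 0 called. Their levels on βUCP2Tg 4 lay near those of the WT arrays. Among the 8 members without overlap, a choice that itself favours such positions, WT 1 lay nearer to βUCP2Tg 1 to 3 for 2 (*Hmgcs1* and *Msmo1*) and βUCP2Tg 4 nearer to WT 2 to 4 for 0, and the part of the hypoxia genes in these members was not tested. The β-cell markers had a median log2 fold change of -0.12, from -0.34 for *Mafa* to 0.41 for *Nkx6-1*, the acinar markers one of -1.69 and the 4 Schwann cell markers one of -0.25, with 0 called in each. The part of these cell types in the members' values was not tested.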

How the data were processed

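RNA of islets from 4 βUCP2Tg and 4 WT samples was measured on 8 one-colour Agilent arrays, which the authors scanned and read with Feature Extraction (10.7.3.1 in the file headers, 9.1 per the labels). The deposited scanner files hold the intensity of each spot as a background-corrected processed signal. The deposited GeneSpring file holds log2 values that the authors had normalized, and it served to choose a single probe per gene (the highest mean over 8 columns) and as an alternative. Its columns of fold change, log2 fold change, p and corrected p were not used, and 0 columns of per-sample values were set aside. Here log2 of the processed signal was taken, spots of a probe were averaged, and each array's 75th percentile was subtracted. Probes well above background (in at least 0.5 of their spots) on at least 4 of 8 arrays, 35363 in all, were fitted with limma 3.58.1 (R 4.3.3 and data.table, version 1.17.8), βUCP2Tg minus WT, without a block, with Benjamini-Hochberg adjustment over all of them. The number of arrays limits the precision.

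The text names every member with its log2 fold change, gives each array's value for members without overlap and for the regulators, and names the largest changes of each further list of lipid genes, with 3 genes added after their values were seen. The members and lists were chosen with earlier results of these data known, and the hepatocyte list after the levels had been seen. The script was tested on simulated data. Promoters came from a RefSeq table. Alternatives were other scalings, background correction, filters, probe choices and tests, a replicate block, and leaving out arrays. Figures were drawn with matplotlib 3.10.9 in Python 3.11.15.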

Additional observations from a re-analysis of the deposited data

Results flagged for a closer look

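In 6 of 68 groups of 4 arrays, 1 array lay far from the other 3 relative to the range of its group. Chance alone marks about 1 in 20 groups, or 3.4 here. The gap to the nearest array, as a share of the range, was 0.847 for *Pmvk* on βUCP2Tg 4 (4.95 against 4.26 to 4.37), 0.846 for *Scd1* on βUCP2Tg 3 (0.33 against -4.91 to -4.10) and 0.876 for *Acaca* on WT 1 (2.05 against 1.55 to 1.62). It was 0.892 for *Cyp51* on WT 3 (1.22 against 1.59 to 1.63), 0.883 for *Stard4* on WT 2 (0.70 against 0.51 to 0.53) and 0.835 for the median level of the fatty acid genes on WT 4 (0.96 against 1.11 to 1.14).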

How the results depend on the processing

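Apart from fits that leave out 1 array, single genes kept their direction and their side of the threshold in 431 combinations of gene and alternative, gained a call in 7 and turned sign in 10. The sign turned for *Tm7sf2* (0.0388) and *Elovl6* (0.00131) when arrays were scaled on their median, which moved the median log2 fold change of all probes from -0.0231 to 0.0376. It turned for *Nsdhl* (-0.00734), *Elovl6* (0.00535) and *Scd1* (0.176) under normexp correction, and for *Ebp* (-0.0140), *Sc5d* (0.0225), *Srebf2* (-0.0922) and *Elovl5* (-0.0425) when all probes of a gene were averaged. Without both WT 1 and βUCP2Tg 4 (chosen after the data had been seen) it turned for *Tm7sf2* (0.114), 2 members were called as higher and 3 as lower, 11 and 13 lay without overlap, and the fatty acid median was 0.296. That median was 0.176 under normexp. Limma with an intensity trend and the averaged probes called 1 member each as lower. With no limit on the fold change, an adjusted p under 0.05 was reached by 0 members in the fit reported, by 1 higher and 6 lower under normexp, and by 3 higher and 7 lower without WT 1, where 8.06% and 8.44% of all probes reached it. The causes were not tested. Leaving out 1 array at a time gave 0 to 1 members called as higher and 0 to 3 as lower, 1 to 4 higher and 7 to 13 lower without overlap (of all probes, 14.7% higher and 15.3% lower without WT 1, which gave the 13, and 11% and 16.6% without βUCP2Tg 4, which gave the 4), a fatty acid median of 0.0420 to 0.249 and a sterol median of -0.322 to -0.160. The log2 fold change ran from -0.151 to 0.108 for *Tm7sf2*, -0.00922 to 0.153 for *Nsdhl*, -0.0339 to 0.0717 for *Elovl5*, -1.31 to 0.431 for *Scd1* and -0.0130 to 0.259 for *Fads2*. Over all 35363 probes 145 were called, against 816 under normexp, 379 with the trend, 237 when all 8 arrays had to be above background, 82 with a percentile over detected probes, 38 with 1 array above background, 26 by the methods' t-test and 21 with no filter.

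With the replicate number as a block, 0 members and 14 probes were called, and the lowest adjusted p of a member was 0.137 (limma). Same-numbered samples of the groups deviated with correlations of 0.437, -0.047, -0.009 and -0.241, and 1 of 4 samples correlated best with its own number, so the numbers were not taken as pairs.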
